A study of Mus musculus with 4 samples.

Results

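The receptor CSF1R, its 2 ligands and a transcription factor of macrophage identity were followed through dystrophic mouse muscle as 4 genes, Csf1, Il34, Csf1r and Maf. They were chosen by name, as the rows of the count matrices that carry these symbols, 4 of 32285 genes. CSF1 and IL-34 are secreted ligands of a single receptor tyrosine kinase, CSF1R, on which most tissue macrophages depend for survival, and which monocytes carry as well. In mouse tissues the ligands come mainly from stromal, vascular and epithelial cells rather than from the macrophages themselves. Maf, or c-Maf, is a transcription factor that acts in the differentiation of macrophages and also works in T cell subsets.

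The libraries were single-cell RNA-seq of mononuclear cells from 14-week-old mice of 2 genotypes. All mice carried mdx5cv, a mutation of the dystrophin gene used as a model of Duchenne muscular dystrophy. One genotype, mdx5cv/Ccr2-/-, also lacked Ccr2, the chemokine receptor that monocytes use to leave the bone marrow and enter tissue, and the other was mdx5cv with Ccr2. Each genotype gave 1 diaphragm and 1 quadriceps library, 4 in all, and no healthy muscle was among them. Myofibres are not among the cells, and how many animals went into a library is not stated in the labels.

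With 1 library per group there was no replicate and no test. A level is given in CPM, the unique molecular identifiers (UMIs) of a gene per 1000000 UMIs of a class of cells in 1 library. Intervals are 95% intervals of counting error only and do not cover the difference between animals or preparations. A difference is called past 2-fold where the log2 ratio of CPM plus 5 was at least 1 in size.

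After filtering, 28735 cells remained of 33554 barcodes, with 4993 to 11256 cells and a median of 5886 to 8971 UMIs per cell in a library. Pairs of libraries shared 9 to 30 barcodes, at most 0.411% of a library. Cells were assigned to 19 classes by fixed marker genes, none of them a member, and 25761 cells received a class. The leading genes of the classes with the most cells went with their names (Apoe, Folr2 and Fcrls in macrophage-like cells, Smoc2 and C7 in fibroblasts). Ccr2, the deleted gene, checked the labels: over all cells it was at 8.53 CPM in mdx5cv/Ccr2-/- diaphragm and 137 CPM in mdx5cv diaphragm, a ratio of 0.0623 (0.0569 to 0.0680). In quadriceps it was at 15.3 CPM in mdx5cv/Ccr2-/- and 251 CPM in mdx5cv, a ratio of 0.0608 (0.0568 to 0.0650).

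On the GRCm38 annotation, Csf1 (ENSMUSG00000014599) lies on chromosome 3 at 107741048 to 107760469, minus strand, and overlaps no other gene. Il34 (ENSMUSG00000031750) lies on chromosome 8 at 110741829 to 110805924, minus strand, Maf (ENSMUSG00000055435) on the same chromosome and strand at 115682942 to 115707794, and Csf1r (ENSMUSG00000024621) on chromosome 18 at 61100598 to 61132149, plus strand. Each of the last 3 overlaps genes on the opposite strand, and no label or file header says whether counting used the strand. The files hold 28 UMIs for the opposite-strand partners of Il34 (3642 UMIs itself), 782 UMIs for Gm15655 opposite Maf (49880 UMIs) and 3074 UMIs for Hmgxb3 opposite Csf1r (27806 UMIs). Csf1 had 17981 UMIs.

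The 4 genes differed in the classes where they were highest, with some overlap. Csf1 was highest per UMI in neutrophil-like cells and held mostly by fibroblasts, Il34 was highest in pericyte-like cells, Csf1r stood almost entirely in macrophage-like and monocyte-like cells, and Maf was shared by lymphatic endothelial-like, macrophage-like, monocyte-like, intermediate and T cell-like cells. Over the 39 profiles of a class in a library with at least 50 cells, Csf1 and Il34 had a Pearson correlation of log2 levels of 0.29, Csf1r and Maf 0.40, and Csf1 and Csf1r -0.13. The profiles come from the same 4 libraries and differ in depth, so these are descriptions.

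**Figure D1:**
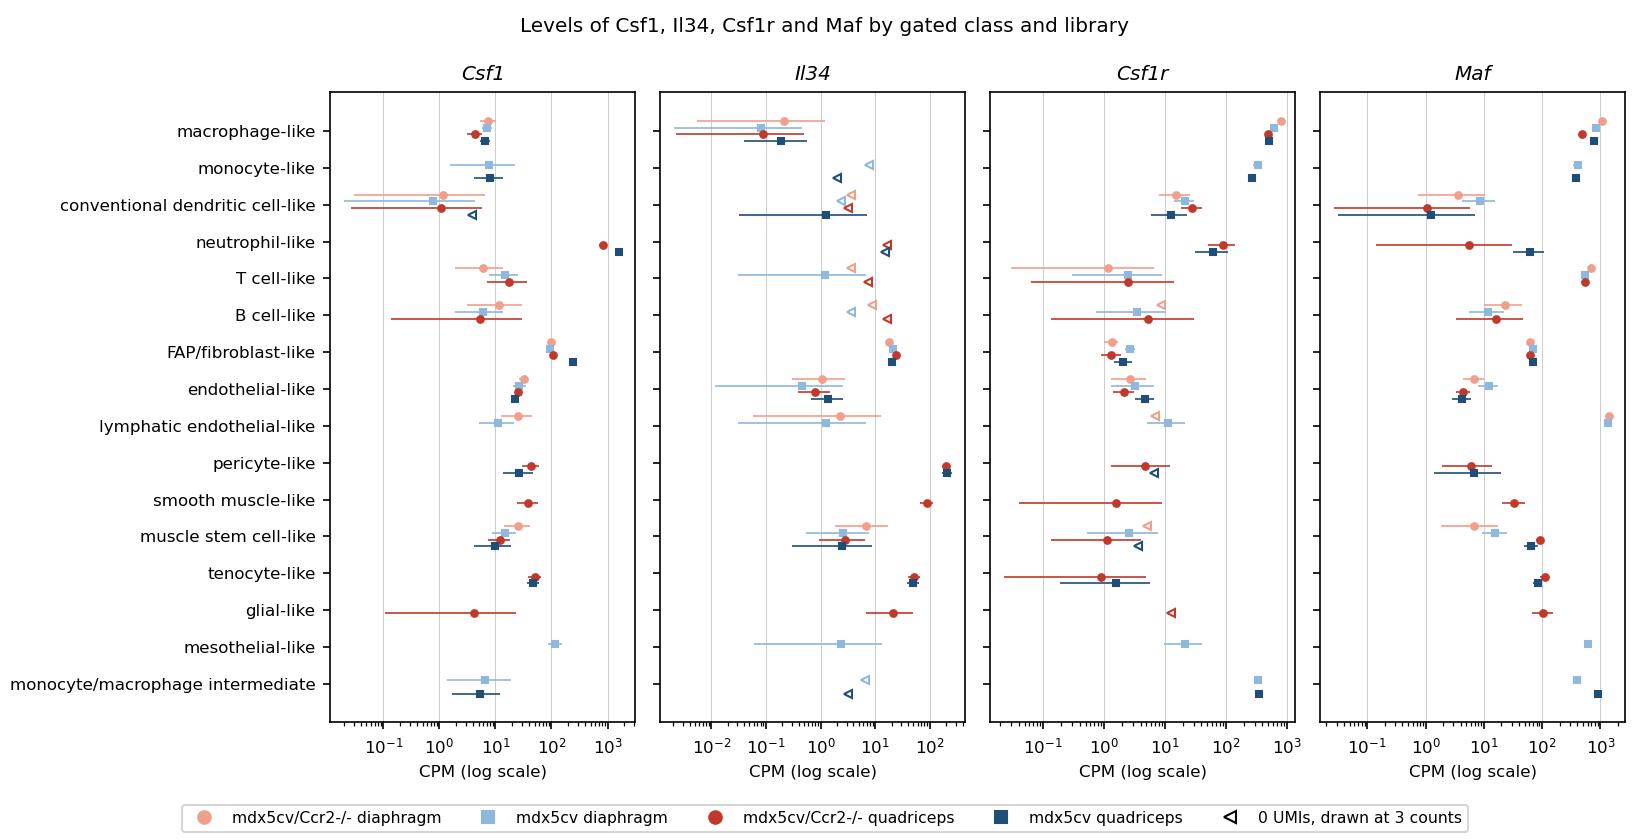
Level of each gene in CPM (horizontal log axis) in each class with at least 50 cells, 1 point per library with its 95% counting interval and open triangles for 0 UMIs. In quadriceps, Csf1 peaks in neutrophil-like cells, at 825 CPM in mdx5cv/Ccr2-/- and 1594 CPM in mdx5cv, and Il34 in pericyte-like cells. Both classes fall short of 50 cells in diaphragm. Csf1r peaks in macrophage-like cells of every library, and Maf in lymphatic endothelial-like cells of the diaphragms. In quadriceps, Maf is highest in T cell-like cells of mdx5cv/Ccr2-/-, at 540 CPM, where the macrophage-like interval overlaps. In mdx5cv quadriceps it is highest in intermediate cells, at 921 CPM.

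Csf1, the first of the ligands, came mainly from fibroblasts. The FAP/fibroblast-like class, which takes its name from the fibro/adipogenic progenitors of muscle, held 90.6% of all Csf1 UMIs in mdx5cv/Ccr2-/- diaphragm and 90.9% in mdx5cv diaphragm, and 71.8% in mdx5cv/Ccr2-/- quadriceps and 81.6% in mdx5cv quadriceps. Endothelial-like cells held 2.51% and 1.14% in the diaphragms of mdx5cv/Ccr2-/- and mdx5cv, and 9.57% and 3.30% in the quadriceps of mdx5cv/Ccr2-/- and mdx5cv. FAP/fibroblast-like cells made up 63.7% and 57.2% of the cells of mdx5cv/Ccr2-/- and mdx5cv diaphragm, and 22.0% and 20.1% in mdx5cv/Ccr2-/- and mdx5cv quadriceps. The part of the cell mix in the UMI shares was not tested.

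Per UMI, the highest Csf1 level stood in neutrophil-like cells. They had 825 CPM (698 to 969, 65 cells) in mdx5cv/Ccr2-/- quadriceps and 1594 CPM (1422 to 1782, 71 cells) in mdx5cv quadriceps, a ratio of 0.517 (0.423 to 0.631). The 6 marker genes of the class summed to 194039 CPM in these cells of mdx5cv/Ccr2-/- quadriceps and 62705 CPM in mdx5cv quadriceps. Their part in the Csf1 ratio was not tested. The diaphragms gave 815 CPM (483 to 1288) from 10 such cells in mdx5cv/Ccr2-/- and 812 CPM (481 to 1284) from 12 cells in mdx5cv. The class is small, so it held 4.53% of the Csf1 UMIs in mdx5cv/Ccr2-/- quadriceps and 6.48% in mdx5cv quadriceps, and 0.376% and 0.354% in the diaphragms of mdx5cv/Ccr2-/- and mdx5cv. FAP/fibroblast-like cells of mdx5cv/Ccr2-/- and mdx5cv quadriceps had a median of 14111 and 13580.5 UMIs, and neutrophil-like cells 2415 and 2809. The order per UMI is thus not an order per cell. Conventional dendritic cell-like cells, another myeloid class, gave 0 or 1 UMI of Csf1 in each library. In quadriceps the order below neutrophil-like cells was FAP/fibroblast-like cells, then tenocyte-like cells at 51.2 CPM in mdx5cv/Ccr2-/- and 47.6 CPM in mdx5cv, which did not separate from pericyte-like cells (42.9 and 26.8 CPM in mdx5cv/Ccr2-/- and mdx5cv) beyond counting error. In mdx5cv diaphragm, mesothelial-like cells had 116 CPM (86.0 to 154, 75 cells), an interval that overlaps that of the FAP/fibroblast-like cells.

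FAP/fibroblast-like cells had a lower Csf1 level without Ccr2 in quadriceps and nearly equal levels in diaphragm. Their Csf1 was at 98.6 CPM (95.7 to 102) in mdx5cv/Ccr2-/- diaphragm and 94.3 CPM (91.6 to 97.0) in mdx5cv diaphragm, a ratio of 1.05 (1.0 to 1.09). In quadriceps it was at 109 CPM (104 to 113) in mdx5cv/Ccr2-/- and 242 CPM (234 to 249) in mdx5cv, a ratio of 0.449 (0.427 to 0.473) and a log2 ratio of -1.12. The mdx5cv quadriceps library stood apart, and the other 3 lay between 94.3 and 109 CPM. Csf1 was the single member past 2-fold of 3 measured in quadriceps fibroblasts, where 1.6% of 5864 genes were past 2-fold, and no member was past it in diaphragm fibroblasts, where 0.175% of 5705 genes were.

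The same library set the muscle comparison. With Ccr2, Csf1 in FAP/fibroblast-like cells of the diaphragm over those of the quadriceps had a ratio of 0.390 (0.374 to 0.407), a log2 ratio of -1.31, where 4.37% of genes were past 2-fold. Without the cells marked by Ccl7, Ptx3, Ccl2 and Cxcl1, a cytokine subset, the log2 ratio was -0.96, short of 2-fold. Without Ccr2 the ratio was 0.908 (0.864 to 0.955), and no member was past 2-fold beside 4.75% of genes. Summed CPM of 8 immediate early genes in these cells was 3032 and 4637 in mdx5cv/Ccr2-/- and mdx5cv diaphragm, and 1188 and 1071 in mdx5cv/Ccr2-/- and mdx5cv quadriceps. That of 4 heat shock genes was 2795, 3591, 961 and 1334 in the same order. Both lists were drawn up after the Csf1 values were seen, and their part in the muscle ratio was not tested.

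The share of fibroblasts with a Csf1 UMI gave the same picture at equal depth. With each cell thinned to 2000 UMIs, which leaves out the 85, 232, 43 and 28 shallower fibroblasts of mdx5cv/Ccr2-/- diaphragm, mdx5cv diaphragm, mdx5cv/Ccr2-/- quadriceps and mdx5cv quadriceps, it was 16.5% in mdx5cv/Ccr2-/- diaphragm and 16.4% in mdx5cv diaphragm, and 16.7% (14.8 to 18.8) in mdx5cv/Ccr2-/- quadriceps and 27.8% (25 to 30.7) in mdx5cv quadriceps. Macrophage-like cells treated alike gave 1.72% and 1.07% in mdx5cv/Ccr2-/- and mdx5cv diaphragm, and 0.742% and 1.02% in mdx5cv/Ccr2-/- and mdx5cv quadriceps. Before thinning, the fibroblast shares were 55.5% and 41.4% in mdx5cv/Ccr2-/- and mdx5cv diaphragm, and 59.3% and 69.3% in mdx5cv/Ccr2-/- and mdx5cv quadriceps, at median depths of 10110, 6485, 14111 and 13580 UMIs. Summed neutrophil markers in the fibroblasts were 112 and 143 CPM in mdx5cv/Ccr2-/- and mdx5cv diaphragm, and 52.4 and 62.4 CPM in mdx5cv/Ccr2-/- and mdx5cv quadriceps, so they were lower in the quadriceps libraries than in the diaphragm libraries.

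Within the FAP/fibroblast-like class, Csf1 was highest in the subset marked by the chemokines and acute-phase genes Ccl7, Ptx3, Ccl2 and Cxcl1. This cytokine subset had 229 CPM (192 to 272, 35 cells) in mdx5cv/Ccr2-/- diaphragm and 268 CPM (234 to 305, 69 cells) in mdx5cv diaphragm. In quadriceps it had 507 CPM (449 to 572, 29 cells) in mdx5cv/Ccr2-/- and 574 CPM (545 to 605, 102 cells) in mdx5cv. It made up 0.903% and 1.07% of the FAP/fibroblast-like cells of mdx5cv/Ccr2-/- and mdx5cv diaphragm, and 2.06% and 10.2% in mdx5cv/Ccr2-/- and mdx5cv quadriceps. Its Csf1 intervals overlap between the genotypes in each muscle.

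The other fibroblast subsets had lower Csf1 levels, and in quadriceps each was lower without Ccr2. The quadriceps ratio of mdx5cv/Ccr2-/- over mdx5cv was 0.723 (0.575 to 0.905) in the adventitial subset (Pi16, Dpp4, Sema3c, Cd55), 0.724 (0.648 to 0.812) in the activated subset (Cthrc1, Tnc, Lrrc15, Postn) and 0.757 (0.668 to 0.858) in the resting subset (Inmt, Gdf10, Penk, Smoc2, Hmcn2). Cells of no subset gave 0.384 (0.344 to 0.428), from 114 CPM in mdx5cv/Ccr2-/- and 297 CPM in mdx5cv. In diaphragm the ratios of these 4 groups lay between 0.923 and 1.12. Activated cells were 43.2% of the fibroblasts of mdx5cv/Ccr2-/- quadriceps and 14.4% in mdx5cv quadriceps. Weighting the subsets alike in both libraries moved the quadriceps ratio to 0.662, against 0.449 unweighted, and left the diaphragm ratio at 1.05. Without the cytokine subset the quadriceps log2 ratio was -0.85, so it was no longer past 2-fold. Summed markers of that subset over all FAP/fibroblast-like cells were 280 and 390 CPM in mdx5cv/Ccr2-/- and mdx5cv diaphragm, and 335 and 1117 CPM in mdx5cv/Ccr2-/- and mdx5cv quadriceps, and their part in the Csf1 ratio of the whole class beyond these values was not tested.

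**Figure D2:**
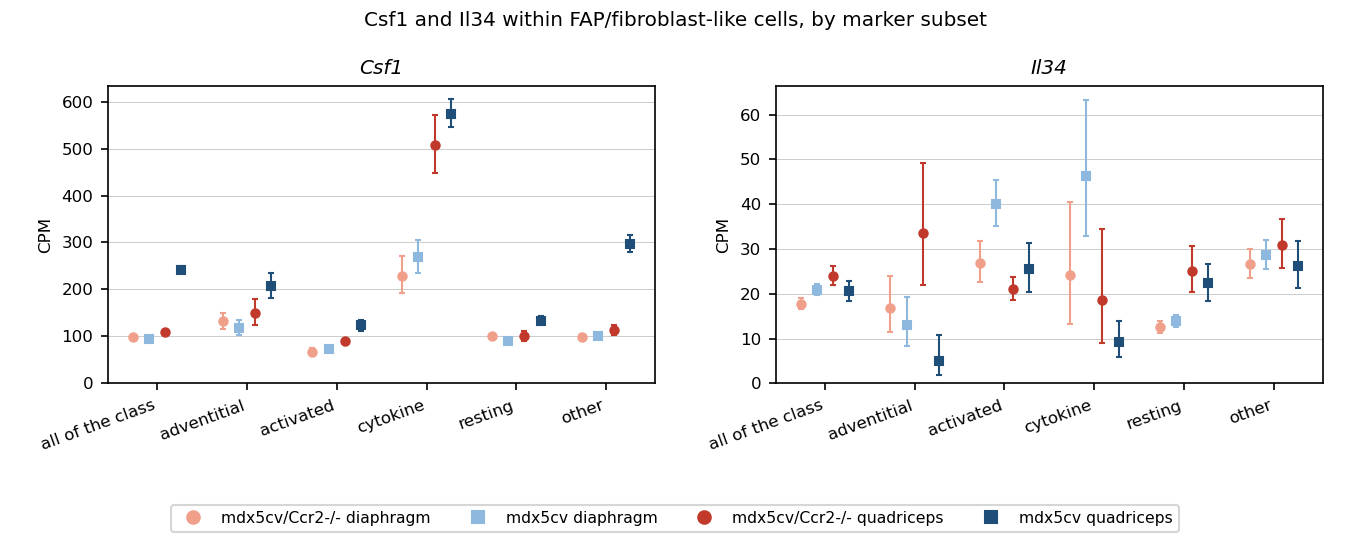
Csf1 (left) and Il34 (right) in CPM in all FAP/fibroblast-like cells and in their marker subsets, 1 point per library with its 95% counting interval. Csf1 is highest in the cytokine subset of every library. Over the whole class it stands higher in mdx5cv quadriceps than in mdx5cv/Ccr2-/- quadriceps, while in the cytokine subset these intervals overlap. Il34 shows no subset that leads in all 4 libraries.

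Il34, the second ligand, was a mural cell transcript per UMI. Pericyte-like cells, the contractile support cells of capillaries, had 168 CPM (95.9 to 272, 27 cells) in mdx5cv/Ccr2-/- diaphragm and 192 CPM (96.0 to 344, 31 cells) in mdx5cv diaphragm. In quadriceps they had 199 CPM (170 to 232, 196 cells) in mdx5cv/Ccr2-/- and 204 CPM (164 to 250, 104 cells) in mdx5cv, a ratio of 0.978 (0.753 to 1.28). The 4 libraries lay close together, and their intervals overlap. Smooth muscle-like cells followed with 49.9 and 47.8 CPM in mdx5cv/Ccr2-/- and mdx5cv diaphragm, and 89.1 and 83.6 CPM in mdx5cv/Ccr2-/- and mdx5cv quadriceps, from 24 to 81 cells. Tenocyte-like cells of the quadriceps had 52.1 CPM (39.6 to 67.4) in mdx5cv/Ccr2-/- and 49.9 CPM (38.4 to 63.7) in mdx5cv, and in mdx5cv/Ccr2-/- they did not separate from smooth muscle-like cells beyond counting error.

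FAP/fibroblast-like cells had a low Il34 level but, by their number, the most UMIs. Their level was 17.8 CPM (16.5 to 19.1) in mdx5cv/Ccr2-/- diaphragm and 20.9 CPM (19.7 to 22.3) in mdx5cv diaphragm, a ratio of 0.848 (0.772 to 0.932). Quadriceps fibroblasts had 24.0 CPM (22.0 to 26.1) in mdx5cv/Ccr2-/- and 20.6 CPM (18.5 to 22.9) in mdx5cv, a ratio of 1.16 (1.01 to 1.34). They held 86.9% and 91.3% of the Il34 UMIs of mdx5cv/Ccr2-/- and mdx5cv diaphragm, and 53.5% and 52.3% in mdx5cv/Ccr2-/- and mdx5cv quadriceps, where pericyte-like cells held 17.1% and 14.2%.

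Endothelial-like and macrophage-like cells were nearly without Il34. Endothelial-like cells had 0.463 to 1.38 CPM over the libraries, and macrophage-like cells gave 1 UMI in mdx5cv/Ccr2-/- diaphragm, 1 in mdx5cv diaphragm, 1 in mdx5cv/Ccr2-/- quadriceps and 3 in mdx5cv quadriceps. Thinned to 2000 UMIs, with 30 and 28 shallower pericyte-like cells left out in mdx5cv/Ccr2-/- and mdx5cv quadriceps, 29.5% of the pericyte-like cells of mdx5cv/Ccr2-/- quadriceps and 30.3% in mdx5cv quadriceps had an Il34 UMI, against 0 of 809 macrophage-like cells of mdx5cv/Ccr2-/- quadriceps and 0 of 1075 in mdx5cv quadriceps, where the binomial interval reaches 0.455% and 0.343%.

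Over all cells, Il34 was at 14.8 CPM in mdx5cv/Ccr2-/- diaphragm and 14.6 CPM in mdx5cv diaphragm, a ratio of 1.02 (0.929 to 1.11) whose direction turns under 3 of 9 alternatives. The gate settings among these 9 cannot move a value over all cells. In quadriceps it was at 16.4 CPM in mdx5cv/Ccr2-/- and 12.6 CPM in mdx5cv, a ratio of 1.30 (1.17 to 1.43). Pericyte-like cells were 3.06% of the cells of mdx5cv/Ccr2-/- quadriceps and 2.08% in mdx5cv quadriceps, and their part in that ratio was not tested. Csf1 over all cells was at 78.7 CPM in mdx5cv/Ccr2-/- diaphragm and 65.9 CPM in mdx5cv diaphragm, with a ratio of 1.20 (1.15 to 1.24). In quadriceps it was at 55.2 and 95 CPM in mdx5cv/Ccr2-/- and mdx5cv, with a ratio of 0.581 (0.556 to 0.608).

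Il34 differed between fibroblast subsets, with no common order over the libraries. Resting fibroblasts of the diaphragm had 12.6 CPM (11.3 to 14.0) in mdx5cv/Ccr2-/- and 13.9 CPM (12.5 to 15.3) in mdx5cv, while activated fibroblasts had 26.9 CPM (22.7 to 31.7) in mdx5cv/Ccr2-/- and 40.0 CPM (35.0 to 45.4) in mdx5cv. In quadriceps the resting cells had 25.1 and 22.3 CPM in mdx5cv/Ccr2-/- and mdx5cv, and the activated cells 21.0 and 25.5 CPM in mdx5cv/Ccr2-/- and mdx5cv. In quadriceps the intervals of the resting and activated cells overlap within each genotype, and in diaphragm they do not. In adventitial cells of the quadriceps Il34 was at 33.5 CPM (21.9 to 49.1, 26 UMIs) in mdx5cv/Ccr2-/- and 4.96 CPM (1.82 to 10.8, 6 UMIs) in mdx5cv, a value singled out after it was seen. Few fibroblasts held both ligands at equal depth: 24 of 3789 in mdx5cv/Ccr2-/- diaphragm, 34 of 6208 in mdx5cv diaphragm, 7 of 1364 in mdx5cv/Ccr2-/- quadriceps and 8 of 976 in mdx5cv quadriceps.

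**Figure D3:**
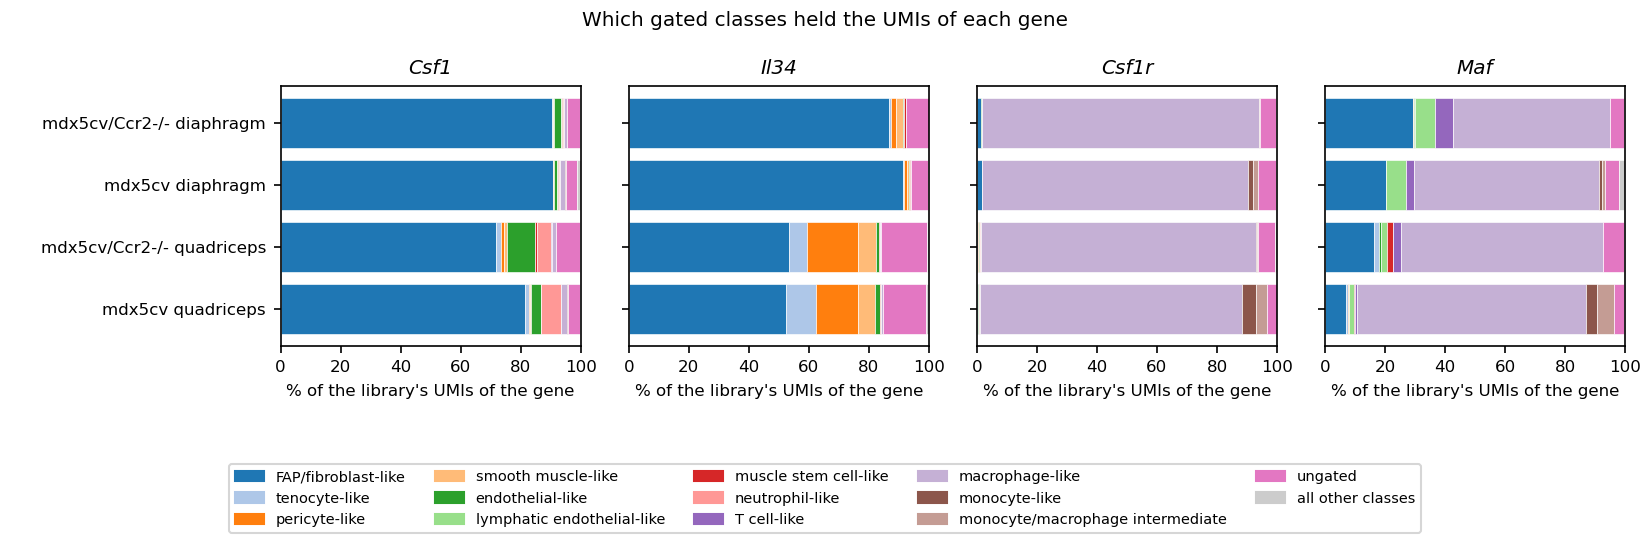
Share of each gene's UMIs (horizontal axis, percent of the library's UMIs of that gene over all kept cells) held by each class, 1 bar per library. FAP/fibroblast-like cells hold most Csf1 in all 4 libraries, at 71.8% to 90.9%, pericyte-like and smooth muscle-like cells a visible share of Il34 in quadriceps, and macrophage-like cells 87.4% to 92.2% of Csf1r.

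Csf1r, the receptor, stood in the mononuclear phagocytes. Macrophage-like, monocyte-like and intermediate cells, counted jointly as receivers, held 92.5% and 91.9% of its UMIs in mdx5cv/Ccr2-/- and mdx5cv diaphragm, and 92.2% and 95.7% in mdx5cv/Ccr2-/- and mdx5cv quadriceps. The intermediate group comprises cells whose macrophage and monocyte marker shares lay within the margin of the gate. FAP/fibroblast-like cells had 1.34 and 2.69 CPM in mdx5cv/Ccr2-/- and mdx5cv diaphragm, and 1.33 and 2.09 CPM in mdx5cv/Ccr2-/- and mdx5cv quadriceps. Thinned to 2000 UMIs, 0.264% to 0.532% of them had a Csf1r UMI, against 57.7% to 78.1% of macrophage-like cells.

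Macrophage-like cells had Csf1r at 796 CPM (770 to 822, 423 cells) in mdx5cv/Ccr2-/- diaphragm and 616 CPM (602 to 630, 1687 cells) in mdx5cv diaphragm, a ratio of 1.29 (1.24 to 1.34). In quadriceps they had 501 CPM (488 to 514, 839 cells) in mdx5cv/Ccr2-/- and 509 CPM (498 to 520, 1124 cells) in mdx5cv, a ratio of 0.984 (0.951 to 1.02). Neither ratio was past 2-fold, and the log2 ratio of quadriceps turned from -0.02 to 0.17 when cells were thinned to 2000 UMIs before summing, so no direction is read from it. Diaphragm over quadriceps, the ratio was 1.59 (1.52 to 1.66) without Ccr2 and 1.21 (1.17 to 1.25) with it. Of the 2 members measured in macrophage-like cells, Csf1r and Maf, none was past 2-fold by genotype in diaphragm, where 1.97% of 5418 genes were, or in quadriceps, where 1.61% of 5403 were.

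Monocyte-like cells carried Csf1r at a lower level than macrophage-like cells where both could be measured. They had 339 CPM (284 to 401, 61 cells) in mdx5cv diaphragm and 272 CPM (247 to 300, 174 cells) in mdx5cv quadriceps. Without Ccr2 there was 1 such cell in diaphragm and 14 in quadriceps. Neutrophil-like cells had 88.6 CPM (50.6 to 144) in mdx5cv/Ccr2-/- quadriceps and 61.3 CPM (31.7 to 107) in mdx5cv quadriceps. Conventional dendritic cell-like cells had 15.4 and 21.1 CPM in mdx5cv/Ccr2-/- and mdx5cv diaphragm, and 28.3 and 12.5 CPM in mdx5cv/Ccr2-/- and mdx5cv quadriceps.

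Within macrophage-like cells, those with markers of resident macrophages had the highest Csf1r level. This resident subset needed at least 2 of Folr2, Cd163, Lyve1, Cbr2, Timd4 and Fcna, and more of these than of the lipid-associated markers given below. The resident subset had 1119 CPM (1066 to 1174, 160 cells) in mdx5cv/Ccr2-/- diaphragm and 984 CPM (939 to 1032, 298 cells) in mdx5cv diaphragm, and 985 CPM (919 to 1055, 99 cells) in mdx5cv/Ccr2-/- quadriceps and 682 CPM (643 to 722, 142 cells) in mdx5cv quadriceps. The lipid-associated subset, marked by Spp1, Gpnmb, Syngr1, Fabp5, Mmp12 and Cd9, had 621 and 526 CPM in mdx5cv/Ccr2-/- and mdx5cv diaphragm, and 439 and 479 CPM in mdx5cv/Ccr2-/- and mdx5cv quadriceps. Its quadriceps ratio of mdx5cv/Ccr2-/- over mdx5cv was 0.916 (0.881 to 0.953), against 1.44 (1.32 to 1.58) for the resident subset. Cells of neither subset had 751 and 644 CPM in mdx5cv/Ccr2-/- and mdx5cv diaphragm. In quadriceps they had 882 CPM (805 to 965) in mdx5cv/Ccr2-/- and 554 CPM (519 to 591) in mdx5cv. In mdx5cv/Ccr2-/- quadriceps their interval overlaps that of the resident subset. Of macrophage-like cells, the resident subset was 37.8% in mdx5cv/Ccr2-/- diaphragm and 17.7% in mdx5cv diaphragm, and 11.8% and 12.6% in mdx5cv/Ccr2-/- and mdx5cv quadriceps. Macrophage-like cells had a median of 10033 and 6814 UMIs in mdx5cv/Ccr2-/- and mdx5cv diaphragm. Cells of neither subset were 16.3% and 28.1% there, at medians of 8145 and 4754.5 UMIs. Median depths in mdx5cv/Ccr2-/- and mdx5cv quadriceps were 11388 and 12661.5 UMIs for the whole class. Subset markers were counted at full depth, and the part of depth in the subset shares and weighted ratios was not tested. Weighting the subsets alike gave a diaphragm ratio of 1.16 against 1.29 unweighted, and a quadriceps ratio of 1.04 against 0.984.

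The receivers were fewer without Ccr2, and Csf1r over all cells was lower. They were 7.0% and 16.1% of the cells of mdx5cv/Ccr2-/- and mdx5cv diaphragm, and 13.4% and 28.0% in mdx5cv/Ccr2-/- and mdx5cv quadriceps. Csf1r over all cells was at 66.5 and 111 CPM in mdx5cv/Ccr2-/- and mdx5cv diaphragm, with a ratio of 0.602 (0.579 to 0.625), and at 104 and 178 CPM in mdx5cv/Ccr2-/- and mdx5cv quadriceps, a ratio of 0.580 (0.561 to 0.599). Sorting of the suspension is not described in the labels, and recovery of each cell type from the muscle was not measured.

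Set against the receivers, the sources stood differently in the 2 muscles. There were 9.09 FAP/fibroblast-like cells per receiver cell in mdx5cv/Ccr2-/- diaphragm and 3.56 in mdx5cv diaphragm, and 1.65 in mdx5cv/Ccr2-/- quadriceps and 0.719 in mdx5cv quadriceps. Csf1 UMIs per Csf1r UMI came to 1.18 in mdx5cv/Ccr2-/- diaphragm and 0.596 in mdx5cv diaphragm, and to 0.533 (0.511 to 0.557) in mdx5cv/Ccr2-/- quadriceps and 0.532 (0.514 to 0.551) in mdx5cv quadriceps. In quadriceps the lower Csf1 and the lower Csf1r of mdx5cv/Ccr2-/- left this quotient alike in both genotypes, and in diaphragm it was higher without Ccr2. For Il34 the quotient was 0.222 and 0.132 in mdx5cv/Ccr2-/- and mdx5cv diaphragm, and 0.158 and 0.0708 in mdx5cv/Ccr2-/- and mdx5cv quadriceps, higher without Ccr2 in both muscles. Csf1 UMIs per Il34 UMI were 5.32 and 4.52 in mdx5cv/Ccr2-/- and mdx5cv diaphragm, and 3.37 and 7.51 in mdx5cv/Ccr2-/- and mdx5cv quadriceps. UMIs count captured 3′ ends and carry no gene length, and capture can differ between genes, so these quotients are compared between libraries only.

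**Figure D4:**
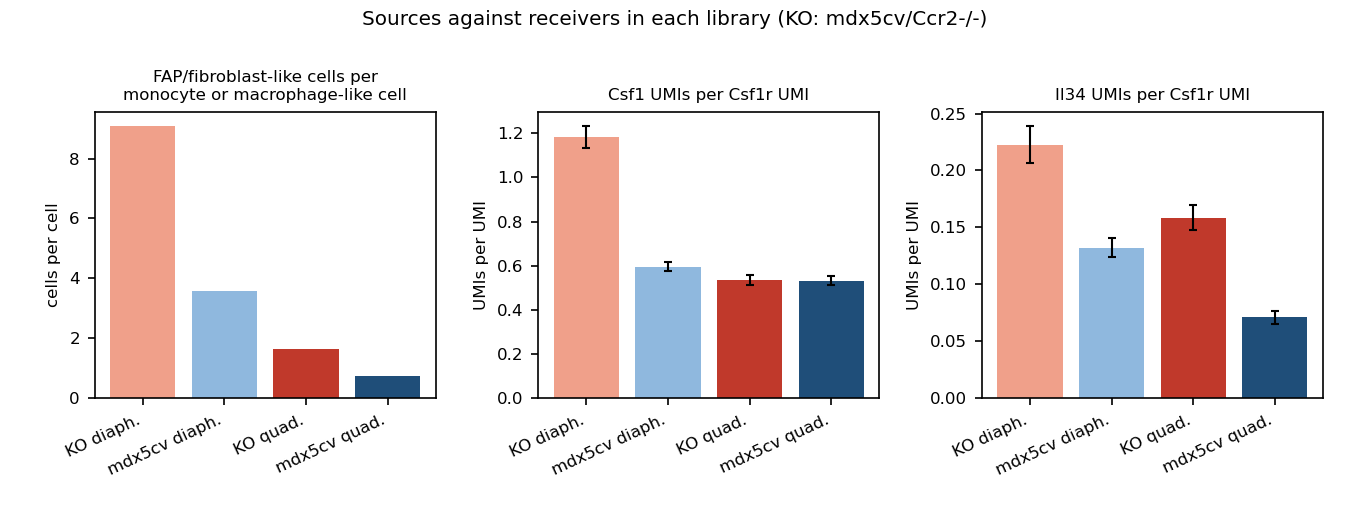
Left, FAP/fibroblast-like cells per macrophage-like, monocyte-like or intermediate cell; middle and right, UMIs of Csf1 and of Il34 over all cells per UMI of Csf1r, with 95% counting intervals, in the 4 libraries (KO stands for mdx5cv/Ccr2-/-). The Csf1 quotient is alike in both quadriceps libraries, 0.533 and 0.532, and higher in mdx5cv/Ccr2-/- diaphragm at 1.18 than in mdx5cv diaphragm at 0.596.

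The receivers themselves made little ligand. They held 0.732% and 1.83% of the Csf1 UMIs of mdx5cv/Ccr2-/- and mdx5cv diaphragm, and 1.46% and 2.45% in mdx5cv/Ccr2-/- and mdx5cv quadriceps. Macrophage-like cells had Csf1 at 7.47 and 7.09 CPM in mdx5cv/Ccr2-/- and mdx5cv diaphragm, and 4.26 and 6.49 CPM in mdx5cv/Ccr2-/- and mdx5cv quadriceps. FAP/fibroblast-like over macrophage-like cells, the Csf1 ratio was 13.2 (9.47 to 19.0) in mdx5cv/Ccr2-/- diaphragm, 13.3 (10.8 to 16.6) in mdx5cv diaphragm, 25.5 (19.2 to 34.7) in mdx5cv/Ccr2-/- quadriceps and 37.2 (30.5 to 45.8) in mdx5cv quadriceps.

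Maf was the member with the widest spread over lineages. Lymphatic endothelial-like cells had 1422 CPM (1312 to 1538, 95 cells) in mdx5cv/Ccr2-/- diaphragm and 1322 CPM (1244 to 1404, 233 cells) in mdx5cv diaphragm, with a ratio of 1.08 (0.973 to 1.19), and 1337 and 1647 CPM from 26 and 21 cells in mdx5cv/Ccr2-/- and mdx5cv quadriceps. Blood endothelial-like cells had 4.15 to 12.0 CPM. T cell-like cells had 676 CPM (622 to 734) in mdx5cv/Ccr2-/- diaphragm and 550 CPM (501 to 604) in mdx5cv diaphragm, and 540 and 552 CPM in mdx5cv/Ccr2-/- and mdx5cv quadriceps. Mesothelial-like cells of mdx5cv diaphragm had 610 CPM (537 to 689), which did not separate from T cell-like cells beyond counting error. Monocyte-like cells had 404 CPM (344 to 472, 61 cells) in mdx5cv diaphragm and 380 CPM (349 to 412, 174 cells) in mdx5cv quadriceps, below the macrophage-like cells of the same libraries given next. Cells intermediate between monocyte-like and macrophage-like had 391 CPM (336 to 453, 60 cells) in mdx5cv diaphragm and 921 CPM (861 to 984, 98 cells) in mdx5cv quadriceps, where their level was the highest among classes of at least 50 cells. Without Ccr2 there were 1 and 14 monocyte-like cells and 2 and 2 intermediate cells in diaphragm and quadriceps. FAP/fibroblast-like cells as a whole class were alike in all 4 libraries, at 62.1 and 68.4 CPM in mdx5cv/Ccr2-/- and mdx5cv diaphragm, and 60.8 and 68.9 CPM in mdx5cv/Ccr2-/- and mdx5cv quadriceps. Within the class, some subsets differed between the muscles. Activated cells had 21.5 and 15.5 CPM in mdx5cv/Ccr2-/- and mdx5cv diaphragm, and 55.3 and 45.8 CPM in mdx5cv/Ccr2-/- and mdx5cv quadriceps. Adventitial cells went the other way, with 205 and 223 CPM in mdx5cv/Ccr2-/- and mdx5cv diaphragm, and 122 and 163 CPM in mdx5cv/Ccr2-/- and mdx5cv quadriceps. Both subsets were singled out after their values were seen.

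In macrophage-like cells the Maf level differed between the genotypes in opposite directions in the 2 muscles. It was 1044 CPM (1015 to 1074) in mdx5cv/Ccr2-/- diaphragm and 836 CPM (820 to 853) in mdx5cv diaphragm, a ratio of 1.25 (1.21 to 1.29). In quadriceps it was 484 CPM (471 to 497) in mdx5cv/Ccr2-/- and 773 CPM (759 to 787) in mdx5cv, a ratio of 0.626 (0.607 to 0.647). The mdx5cv/Ccr2-/- quadriceps library was the lowest and the mdx5cv/Ccr2-/- diaphragm library the highest of the 4. Diaphragm over quadriceps, the ratio was therefore 2.16 (2.07 to 2.24) without Ccr2, a log2 ratio of 1.10, where 2.21% of genes were past 2-fold upwards and 3.19% in either direction. With cells thinned to 2000 UMIs the log2 ratio was 0.84, short of 2-fold. With Ccr2 it was 1.08 (1.05 to 1.11), and neither member was past 2-fold beside 1.98% of genes. Immediate early genes summed to 5334 and 6279 CPM in macrophage-like cells of mdx5cv/Ccr2-/- and mdx5cv diaphragm, against 1874 and 2364 CPM in mdx5cv/Ccr2-/- and mdx5cv quadriceps, and their part in the Maf ratio was not tested. Markers of lymphatic endothelial cells summed to 1.03 to 12.7 CPM in macrophage-like cells and to at least 20785 CPM in their own class, and T cell markers to at most 3.84 CPM.

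Maf was highest in the resident subset and lowest in the lipid-associated subset of every library. The resident subset had 1801 CPM (1733 to 1870) in mdx5cv/Ccr2-/- diaphragm and 1797 CPM (1735 to 1861) in mdx5cv diaphragm, and 1657 CPM (1571 to 1747) in mdx5cv/Ccr2-/- quadriceps and 1926 CPM (1860 to 1993) in mdx5cv quadriceps. The lipid-associated subset had 624 and 586 CPM in mdx5cv/Ccr2-/- and mdx5cv diaphragm, and 358 and 528 CPM in mdx5cv/Ccr2-/- and mdx5cv quadriceps. In diaphragm the ratios within the resident, lipid-associated and unassigned cells were 1.0 (0.951 to 1.05), 1.07 (1.01 to 1.13) and 1.02 (0.930 to 1.12), and the ratio with the subsets weighted alike was 1.03, against 1.25 unweighted. In quadriceps they were 0.861 (0.808 to 0.917), 0.678 (0.650 to 0.706) and 0.690 (0.627 to 0.759), and the weighted ratio was 0.725, against 0.626 unweighted. The lipid-associated subset was 45.9% and 54.2% of macrophage-like cells in mdx5cv/Ccr2-/- and mdx5cv diaphragm, and 78.7% and 69.7% in mdx5cv/Ccr2-/- and mdx5cv quadriceps.

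**Figure D5:**
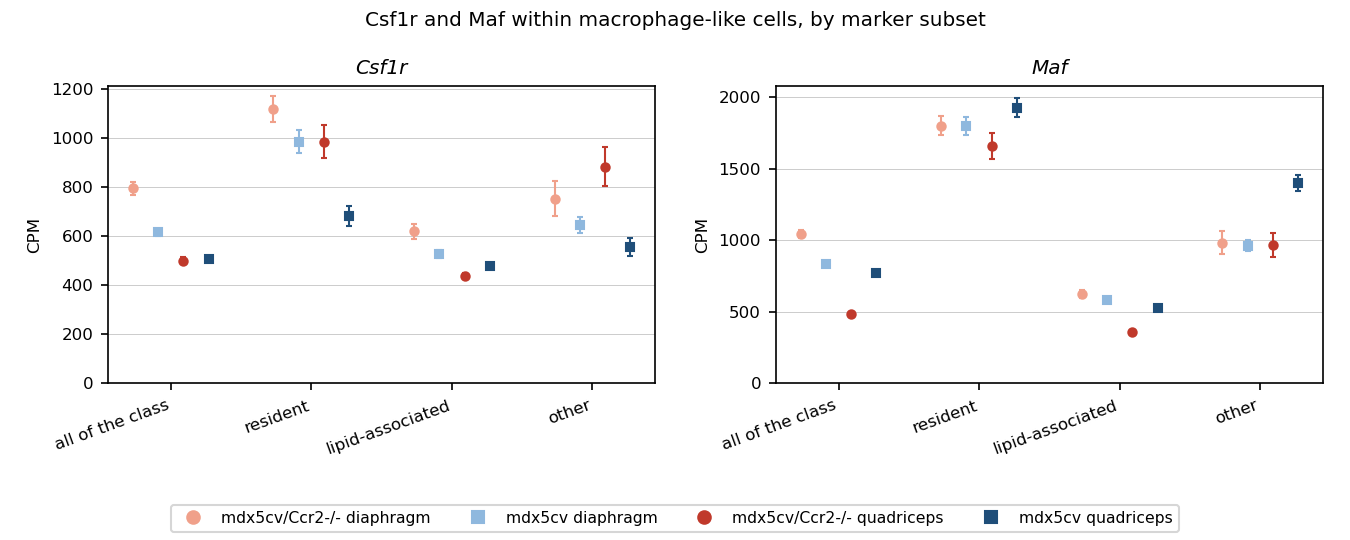
Csf1r (left) and Maf (right) in CPM in all macrophage-like cells and in the resident, lipid-associated and unassigned subsets, 1 point per library with its 95% counting interval. Maf stands between 1657 and 1926 CPM in the resident subset and between 358 and 624 CPM in the lipid-associated subset. The Maf levels of the diaphragm libraries lie close together within each subset. Csf1r stands higher in mdx5cv/Ccr2-/- diaphragm than in mdx5cv diaphragm in each subset.

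At equal depth, macrophage-like cells with a Maf UMI more often had a Csf1r UMI as well. The shares with Csf1r were 81.8% among cells with Maf and 66.7% among those without in mdx5cv/Ccr2-/- diaphragm, and 71.0% and 57.4% in mdx5cv diaphragm. They were 68.4% with Maf and 55.0% without in mdx5cv/Ccr2-/- quadriceps, and 60.1% and 53.3% in mdx5cv quadriceps. Cells of 1 library are not replicates, and the resident subset is high in both genes, so these shares are given without a test.

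Muscle stem cell-like cells (Pax7, Myf5, Myod1, Chodl, Cdh15 and Calcr) had Maf in quadriceps and little in diaphragm. The level was 6.81 CPM (1.85 to 17.4, 4 UMIs in 58 cells) in mdx5cv/Ccr2-/- diaphragm and 15.7 CPM (9.29 to 24.8, 18 UMIs in 139 cells) in mdx5cv diaphragm. The quadriceps cells had 90.5 CPM (77.0 to 106, 159 UMIs in 180 cells) in mdx5cv/Ccr2-/- and 64.5 CPM (48.3 to 84.4, 53 UMIs in 97 cells) in mdx5cv. Both quadriceps libraries lay above both diaphragm libraries. Diaphragm over quadriceps, the ratio was 0.0752 (0.0202 to 0.196) without Ccr2 and 0.243 (0.134 to 0.421) with Ccr2, log2 ratios of -3.02 and -1.75. With cells thinned to 2000 UMIs before summing, the ratio without Ccr2 was 0.0618 (0.00153 to 0.361), from 1 against 48 UMIs. With Ccr2 it was 0.323 (0.0727 to 1.16), from 4 against 9 UMIs. That last interval includes 1, so the muscles with Ccr2 did not separate beyond counting error at equal depth. In these cells 2.38% of genes were past 2-fold between the muscles without Ccr2 and 3.57% with Ccr2. Chodl, 1 of the 6 markers of the class, was also a leading gene of tenocyte-like cells. Those had Maf at 111 and 83.4 CPM in mdx5cv/Ccr2-/- and mdx5cv quadriceps, from 122 and 126 cells. The diaphragms of mdx5cv/Ccr2-/- and mdx5cv held 10 and 8 such cells, and their part in the Maf difference was not tested.

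Markers of some other Maf-rich classes were summed in the muscle stem cell-like cells. Macrophage markers summed to 30.6 and 38.3 CPM in mdx5cv/Ccr2-/- and mdx5cv diaphragm, and to 35.9 and 51.1 CPM in mdx5cv/Ccr2-/- and mdx5cv quadriceps. Lymphatic endothelial markers summed to 192 and 132 CPM in mdx5cv/Ccr2-/- and mdx5cv diaphragm, and to 157 and 131 CPM in mdx5cv/Ccr2-/- and mdx5cv quadriceps. T cell markers summed to 1.70 and 13.1 CPM in mdx5cv/Ccr2-/- and mdx5cv diaphragm, and to 1.14 and 0 CPM in mdx5cv/Ccr2-/- and mdx5cv quadriceps. In their own classes the macrophage markers summed to at least 12402.6 CPM, the lymphatic endothelial markers to at least 20785 CPM and the T cell markers to at least 4392.78 CPM. The macrophage sum was thus lower in diaphragm in both genotypes, and the lymphatic endothelial and T cell sums were not. The part of these markers in the Maf difference was not tested. Thinned to 2000 UMIs, with 1 to 11 shallower cells left out per library, 1.75% and 3.12% of the cells had a Maf UMI in mdx5cv/Ccr2-/- and mdx5cv diaphragm, and 23.7% and 9.68% in mdx5cv/Ccr2-/- and mdx5cv quadriceps, against 0.561% to 2.03% of endothelial-like cells over the 4 libraries.

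Over all cells, Maf was at 154 CPM in mdx5cv/Ccr2-/- diaphragm and 215 CPM in mdx5cv diaphragm, giving 0.716 (0.698 to 0.735) as the ratio, and at 136 CPM in mdx5cv/Ccr2-/- quadriceps and 310 CPM in mdx5cv quadriceps, a ratio of 0.440 (0.428 to 0.452). It was the single member past 2-fold over all quadriceps cells, where 1.69% of 6343 genes were, and no member was past it over all diaphragm cells, where 1.28% of 6017 genes were. Macrophage-like cells were 6.95% and 15% of the cells of mdx5cv/Ccr2-/- and mdx5cv diaphragm, and 13.1% and 22.5% in mdx5cv/Ccr2-/- and mdx5cv quadriceps. They held 52.2% and 61.7% of the Maf UMIs of mdx5cv/Ccr2-/- and mdx5cv diaphragm, and 67.1% and 76.4% in mdx5cv/Ccr2-/- and mdx5cv quadriceps.

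Genes of the machinery around CSF1R were compared between genotypes in the same cells. All 8 listed signalling partners were measured in macrophage-like cells of both muscles and 0 were past 2-fold, with a median log2 ratio of -0.09 in diaphragm and -0.01 in quadriceps, beside 0.05 and 0.07 for all genes. Of all genes, 1.97% in diaphragm and 1.61% in quadriceps were past 2-fold, so a count of 0 among so few genes lies near the background. Tyrobp, the DAP12 adaptor of myeloid receptors, ranged from 1819 to 2273 CPM over the libraries, and Adam17, the protease that sheds CSF1R from the surface, from 107 to 127 CPM. Of 17 listed transcription factors, 15 were measured in diaphragm and 14 in quadriceps, and 0 were past 2-fold, with medians of -0.09 and -0.08. Spi1, which encodes the PU.1 activator of Csf1r transcription, ranged from 289 to 333 CPM.

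Between the muscles, some of these factors did pass 2-fold in macrophage-like cells. Diaphragm over quadriceps, 2 of 15 were higher and 1 lower without Ccr2, and 4 of 15 were higher and 0 lower with Ccr2, beside 3.19% and 1.98% of all genes. Klf2 and Klf4, Krüppel-like factors that are also induced by cell handling, were among the higher ones in both genotypes, with ratios of 4.41 and 2.83 without Ccr2 and 3.10 and 2.31 with Ccr2, and they were singled out after their values were seen. They went with the summed immediate early genes given above, whose part was not tested.

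Among the sister colony-stimulating factors and the resident macrophage genes, 5 calls past 2-fold by genotype were made in macrophage-like cells. Of 7 sister factors and receptors, 4 were measured in each muscle. In diaphragm 0 of them were past 2-fold, and in quadriceps 1 was, Csf3r, the receptor of the neutrophil growth factor G-CSF, at 14.9 CPM in mdx5cv/Ccr2-/- quadriceps and 37.7 CPM in mdx5cv quadriceps. Of 10 resident macrophage genes, 3 of 8 measured were higher past 2-fold without Ccr2 in diaphragm, Cd163, Lyve1 and Folr2, with ratios of 3.94, 3.30 and 2.45, beside the 1.97% of all genes past 2-fold there. In quadriceps 1 of 7 measured was, Fcna, with a ratio of 2.60, beside 1.61% of all genes. The median log2 ratio of the resident genes was 0.88 in diaphragm, with 7 of 8 above 0, and 0.28 in quadriceps, with 5 of 7 above 0, beside 0.05 and 0.07 for all genes. For the sister factors it was -0.35 and 0.07. These genes are named because the counts are small, after their values were seen. Cd163, Lyve1, Folr2 and Fcna are among the markers of the resident subset, whose share of macrophage-like cells is given above.

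Ptprz1 and Sdc1, the only other reported receptors of IL-34 that were looked at, had their highest levels outside the macrophages. Ptprz1, a receptor tyrosine phosphatase, gave 1 UMI in the macrophage-like cells of all 4 libraries and had its highest level in glial-like cells of mdx5cv/Ccr2-/- quadriceps, at 459 CPM. Sdc1, the heparan sulphate proteoglycan syndecan-1, had 1.07 to 8.51 CPM in macrophage-like cells and 261 to 273 CPM in pericyte-like cells of the quadriceps, the class that was also highest in Il34.

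The genes most like each member in profile were named by a fixed rule, the 5 highest Pearson correlations of log2 levels over the same 39 profiles among 11690 genes outside the marker lists. For Il34 they were Arhgef17, Carmn, Cacna1c, Pdgfrb and Pth1r (0.92 to 0.94), of which Pdgfrb is the PDGF receptor of mural cells and Cacna1c a calcium channel subunit of smooth muscle. For Csf1r they were Lair1, Fcgr3, Tlr8, Clec4a1 and Clec4a2 (0.94 to 0.96), which encode receptors of myeloid cells. For Csf1 they were Ccpg1, Med13l, Ccdc126, Kdm5b and Dhrs7 (0.76 to 0.84). For Maf the closest was Gm15655 at 0.90, which overlaps Maf on the opposite strand and may share reads with it, since strand use in counting is not stated, followed by Ang, Ikbke, Slc11a2 and Pld3 (0.71 to 0.77).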

How the data were processed

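The 4 libraries, 1 per genotype and muscle, were made by droplet 3′ single-cell RNA-seq, per the labels' protocols. Counts are the UMIs per gene and barcode as deposited by the authors, made with Cell Ranger 6.1.2 on mm10, per the submitters' processing notes. A barcode was kept from 500 UMIs and 300 genes upwards, if no more than 15% of its UMIs were mitochondrial. Scrublet scores (scanpy 1.11.5, seed 7) removed the highest-scoring barcodes at a rate rising with the barcodes deposited. A cell joined the class with the highest share of its markers detected, with at least 3 markers and a lead of 0.2. A subset needed at least 2 of its markers, and more of them than of any other subset. Markers were counted at full depth, so the shares of subsets can depend on depth. UMIs were added up within each class of a library and scaled to CPM. Intervals are exact Poisson for levels, exact conditional binomial for ratios and Clopper-Pearson for shares, at 95% (scipy 1.17.1), and cover counting error only. Cells were not used as replicates, and no p-value was computed.

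Genes with a mean of at least 20 CPM and at least 50 UMIs over both libraries were counted as measured; 2-fold refers to log2(CPM + 5). The fold call was tested on simulated data. Named were the members, the 5 most alike genes of each, and pathway genes that are defining partners or past 2-fold in the same direction in both muscles (none was); Klf2, Klf4, Csf3r, Cd163, Lyve1, Folr2 and Fcna were named after their values were seen. The members and lists were chosen with earlier results of these data known. The values of 1 listed gene are not reported here.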

Additional observations from a re-analysis of the deposited data

Results flagged for a closer look

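Each of 4 values had ratios of mdx5cv/Ccr2-/- over mdx5cv on opposite sides of 1 in the 2 muscles. With 1 library per group, these differences between the muscles were not tested. Csf1 in FAP/fibroblast-like cells had a ratio of 1.05 in diaphragm and 0.449 in quadriceps, and Csf1 over all cells 1.2 in diaphragm and 0.581 in quadriceps. For both, mdx5cv quadriceps was the highest of the 4 libraries. Il34 in FAP/fibroblast-like cells had a ratio of 0.848 in diaphragm and 1.16 in quadriceps. Maf in macrophage-like cells had a ratio of 1.25 in diaphragm and 0.626 in quadriceps, and with the marker subsets weighted alike 1.03 in diaphragm and 0.725 in quadriceps.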

How the results depend on the processing

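A set of 17 log2 ratios of whole classes or of all cells was recomputed with all barcodes, no doublet removal, other gates, scalings or pseudocounts and with cells thinned to 2000 UMIs; the ratios of subsets and of smaller classes were not. Of 176 alternatives over 19 results, the counts of genes included, 155 stayed within the counting interval or, for counts of genes, within 1.5 times, and 0 called values reversed. The 155 include the gate settings for Il34 and Maf over all cells, whose outcome was fixed because the gate cannot move such values. Median-of-ratios scaling moved Csf1r in macrophage-like cells to 0.29 in diaphragm (0.37 as reported) and -0.11 in quadriceps (-0.02 as reported), and Maf to 0.24 in diaphragm (0.32) and -0.76 in quadriceps (-0.67). Thinning moved Csf1r in quadriceps to 0.17, turning its sign, Maf in quadriceps to -0.46, Csf1 in quadriceps FAP/fibroblast-like cells to -1.03 (-1.12) and Il34 over all quadriceps cells to 0.46 (0.28). A gate margin of 0.35 moved Maf in quadriceps macrophage-like cells to -0.60 and left 0 Maf UMIs in the muscle stem cell-like cells of either diaphragm, so the log2 ratios of -4.25 with Ccr2 and -4.42 without it are set by the pseudocount and are no fold. Leaving out the cytokine subset, chosen after seeing the data, took Csf1 to -0.85. Of 3 further ratios recomputed after seeing the data, Csf1 in FAP/fibroblast-like cells, diaphragm over quadriceps with Ccr2 (-1.31), went to -1.19 under thinning and -0.96 without that subset, Maf in macrophage-like cells, diaphragm over quadriceps without Ccr2 (1.10), to 0.84 under thinning, and Maf over all quadriceps cells (-1.16) to -1.08 under thinning and -1.26 under median-of-ratios scaling. For Il34 over all diaphragm cells, 3 of 9 alternatives turned the sign, and the gate cannot move a value over all cells. A pseudocount of 1 took the log2 Csf1 ratio of FAP/fibroblast-like over macrophage-like cells to 3.56 in mdx5cv diaphragm, 4.38 in mdx5cv/Ccr2-/- quadriceps and 5.02 in mdx5cv quadriceps. Without the filter on low genes, 215 genes in diaphragm and 172 in quadriceps macrophage-like cells were past 2-fold by genotype, against 107 and 87. The causes were not tested. No paired analysis was possible because each group has 1 library and no test was made. With 1 library per group, an animal or preparation effect and the genotype or muscle cannot be told apart, and classes under 50 cells (pericyte-like, neutrophil-like and tenocyte-like cells of the diaphragm) carry wide intervals.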
